A study of Oryctolagus cuniculus with 9 samples.

Results

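The diaphragm genes described here are those in which all 6 libraries of mechanically ventilated rabbits lay on the same side of all 3 control libraries. Of 29076 rabbit genes in the deposited table, 12981 had a mean of at least 0.5 FPKM (fragments per kilobase of transcript and per 1e6 mapped) over the 9 libraries. Among these, 329 genes had every ventilated library above every control (2.53% of those tested) and 341 had every ventilated library below every control (2.63%), 670 genes in all. The rule was applied to counts per 1e6 counts (CPM) after TMM scaling, which corrects library sizes for differences in RNA composition. CPM values compare libraries within a gene and not 1 gene with another.

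All libraries came from rabbit diaphragm, and age and sex are not given in the sources used here. For the CON and MV groups the study's methods name New Zealand white rabbits under pentobarbital with dexmedetomidine as sedation. The CON group (n = 3) breathed spontaneously under anaesthesia. The MV group (n = 3) was ventilated for 48 h in volume control mode with a positive end-expiratory pressure (PEEP) of 0 cmH2O. The MV_PEEP group (n = 3) was ventilated with PEEP, for which the labels give the value 8 without a unit and no duration, and its drugs are not given in the sources used here. Both ventilated groups were pooled against the CON group, so the comparison asks what ventilated diaphragms shared, whatever the PEEP.

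The diaphragm is the main muscle of inspiration and works without long rest. When a ventilator takes over breathing, the muscle is unloaded, and its fibres are known to lose mass and force within days. Protein breakdown through the muscle ubiquitin ligases, changes in fuel use and oxidative stress are textbook parts of the response of a resting muscle. The methods mention a feeding tube for animals ventilated for 48 h and do not say how the controls were fed, so feeding and ventilation cannot be told apart here.

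The CON libraries held 21646702 to 31791693 counts each and the ventilated libraries 24670232 to 43697018. Muscle identity was clear from ACTA1, skeletal actin, at a mean of 21676 FPKM, whereas MYH2 and MYH7 could not be matched in the table. The labels number the libraries as replicates without saying that each came from another rabbit, so any p-value measures only the spread between these libraries. MV replicate 1 and MV_PEEP replicate 3 stood apart. The neutrophil markers were highest in the first of them, and macrophage, fibroblast, adipocyte and mesothelial markers were highest in the second, where the muscle fibre markers were lowest. For this reason the counts are also given without both libraries in the closing section.

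In edgeR's quasi-likelihood test over all 12981 genes, no call was made at an adjusted p of 0.05, with 0 genes higher (0%) and 0 lower (0%). The smallest adjusted p, in edgeR, was 0.0600, for AQP7. At an unadjusted p under 0.05 there were 520 genes higher (4.01%) and 482 lower (3.71%). DESeq2 called 115 genes higher and 91 lower, of which 93 and 88 were among the one-sided genes, and limma with voom called 2 and 1. The biological coefficient of variation was 0.564. Because the rule and the test use the same contrast, the fold changes below are descriptions of genes chosen for their separation, and none of them passed the test in edgeR.

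The balance of the 2 directions depended on the scaling. With TMM factors 49.1% of the 670 genes were on the higher side. With the FPKM values as deposited 777 genes were above and 162 below the controls (82.8% above), and with library size alone 802 and 154 (83.9% above), while DESeq2 size factors gave 355 and 328. Scaling by library size alone moved the median log2 fold change of all genes up by 0.245. The genes on the same side under all 4 scalings numbered 256 higher (1.97%) and 126 lower (0.971%). All genes named below belong to these, except where another status is given.

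**Figure D1:**
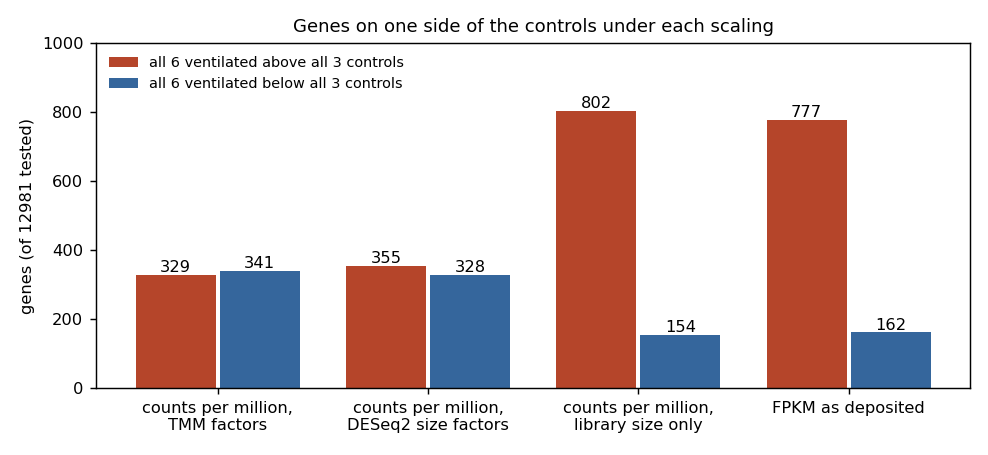
Number of genes, of 12981 tested, with all 6 ventilated libraries above (red) or below (blue) all 3 control libraries, under each of 4 scalings of the same table. The higher genes number 329 with TMM factors and 777 with FPKM, and the lower genes 341 and 162.

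The members differed widely in how far apart the groups stood. The gap between the nearest ventilated and control libraries, as a difference of log2(CPM + 0.1), had a median of 0.18 over the 329 higher genes and of 0.21 over the 341 lower genes. It exceeded 1 in 26 higher and 22 lower genes. The median log2 fold change was 0.99 and -1.21, beside 0.06 over all genes tested. Just inside the rule on the higher side lay SLC7A5, an amino acid transporter, whose highest control and lowest ventilated libraries both rounded to 0.922 CPM, and GOLGA3, a Golgi protein that was on the higher side only with TMM and DESeq2 factors. IGIP and ATP5G3 lay just inside on the lower side, with TMM factors only. Just outside it lay IL6 and LOC100359087, listed at 0 in all 3 controls and in at least 1 ventilated library, and SLC25A4 and RNF2 on the lower side. Genes with higher values had a median span of 29.5 kb, genes with lower values of 12.8 kb, and all genes tested of 18.6 kb.

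A group of the higher genes serves fatty acid use. Of 21 tested genes that carry, store or burn fatty acids or answer to fasting, 7 were above the controls in all 6 ventilated libraries and 0 below, and all 7 kept their side under the 4 scalings. The median log2 fold change of the 21 genes was 0.97. For all list counts on the TMM scale, the shares over all genes tested were 2.53% higher and 2.63% lower. The list was written with earlier results of these data known, as were the others. In the table's own annotation terms, looked up after the values were seen, 2 of 27 genes of fatty acid beta-oxidation were higher and 0 lower. Of 35 lipid droplet genes 3 were higher and 1 lower. Of 25 genes of fatty acid metabolic process 1 was higher and 1 lower, and of 59 peroxisome genes 2 and 1. The median log2 fold changes of these terms, in this order, were 0.20, 0.05, 0.12 and 0.12, beside 0.06 over all genes tested.

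AQP7, a channel that passes glycerol as well as water, lies on chromosome 1 (OryCun2.0, chr1:20067205-20078802). Its level was 2.72, 3.16 and 7.23 CPM in the CON libraries and ran from 32.9 to 47.9 CPM with a median of 38.1 in the ventilated libraries. All ventilated values were thus within a narrow range, by the rule above the controls, and the log2 fold change was 3.15 (standard error 0.38). PLIN2, the coat protein of lipid droplets (chr1:34734655-34759080), had 21.8, 16.9 and 16.3 CPM in the controls and from 93.2 to 500 CPM in the ventilated libraries, with a median of 153 and a log2 fold change of 3.60 (standard error 0.64). The ventilated values were spread over a wide range, and by the rule all lay above the controls.

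PDK4, the kinase that shuts pyruvate dehydrogenase and so spares glucose, lies at chr10:33584163-33597124. It stood at 165, 46.7 and 47.8 CPM in the controls and between 353 and 2692 CPM in the ventilated libraries, with a median of 1392 (log2 fold change 4.04, standard error 0.76). ANGPTL4, which blocks lipoprotein lipase outside the cell, had 5.53, 0 and 0.638 CPM in the controls and between 51.3 and 218 CPM under ventilation (median 120). CON replicate 1 was the highest control for both genes and, by the rule, lay below every ventilated library.

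CD36, the fatty acid transporter of the cell surface, had 200, 182 and 169 CPM in the controls and a range of 533 to 1312 CPM in the ventilated libraries (median 617, log2 fold change 1.97, standard error 0.38). MLYCD, which removes malonyl-CoA, the inhibitor of fatty acid entry into mitochondria, ranged from 44.4 to 99.3 CPM against 31.2, 24.8 and 16.4 CPM. SLC25A20, the carnitine carrier of the inner membrane, ranged from 69.5 to 168 CPM against 41.0, 24.5 and 15.8 CPM. In these genes, as the rule requires, the groups did not overlap. CPT2, the inner of the carnitine palmitoyltransferases, was nearer to the edge, with 35.1 CPM in the highest control and 35.8 CPM in the lowest ventilated library. LOC103346593, which the table annotates as the liver form of carnitine palmitoyltransferase 1, had a log2 fold change of 1.93, and LOC100344509, annotated as acyl-CoA thioesterase 1, of 3.19.

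FABP4, a fatty acid carrier that is also a marker of adipocytes, was between 313 and 432 CPM in 5 ventilated libraries and reached 3378 CPM in MV_PEEP replicate 3, against 157, 198 and 281 CPM in the controls. The summed level of the 3 tested adipocyte markers was 205 to 381 FPKM in the controls and 431 to 7772 FPKM in the ventilated libraries. FABP4 alone of the 3 was on one side, and ADIPOQ and CIDEC were not. Without MV_PEEP replicate 3 the median log2 fold change of the fatty acid list was 0.97 and that of the adipocyte markers -0.42, from 2.04 with all libraries. The part of fat cells in the values of this list was not tested.

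**Figure D2:**
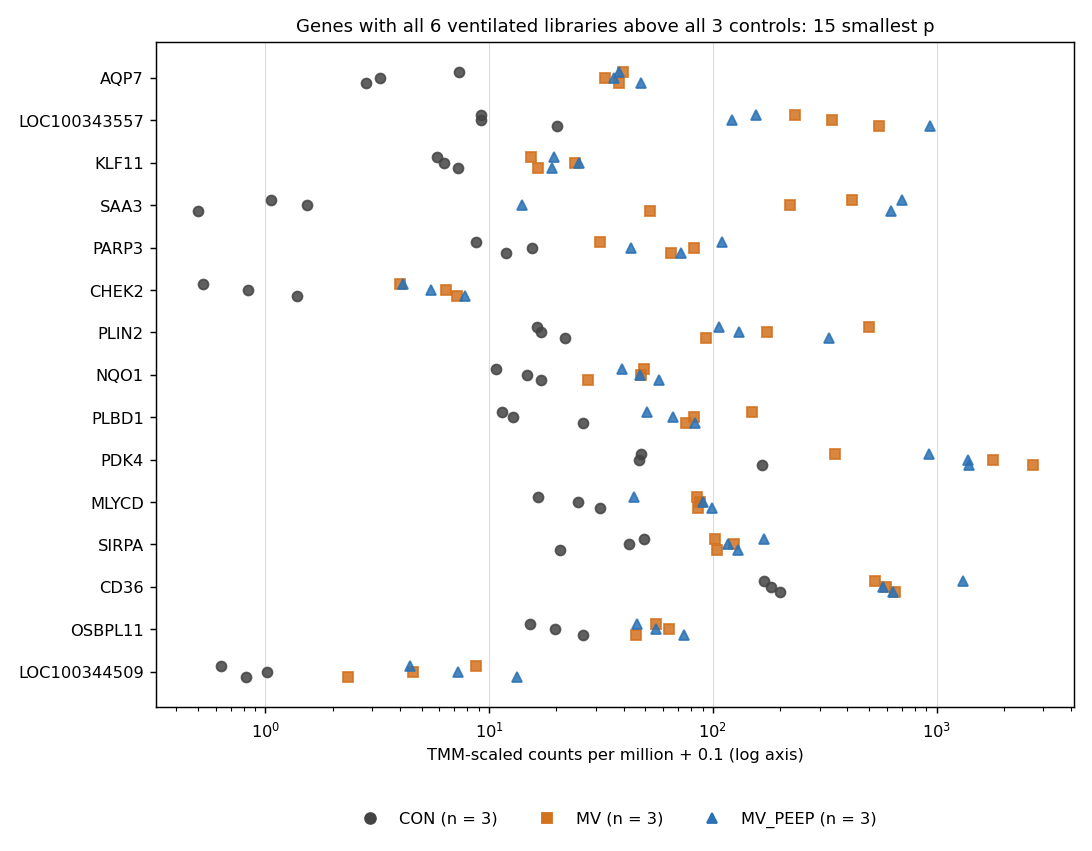
TMM-scaled CPM plus 0.1 (log axis) in each of the 9 libraries for the 15 genes with the smallest p among those with every ventilated library above every control. Grey circles are CON, orange squares MV and blue triangles MV_PEEP libraries. AQP7 is the tightest, with all 6 ventilated libraries between 32.9 and 47.9 CPM, and SAA3 the most spread, between 13.9 and 701 CPM.

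Of 24 tested genes of glycolysis and glycogen, 0 were on the higher side and 2 on the lower, SLC2A4 and PGK1. SLC2A4, the insulin-responsive glucose transporter, had 254, 153 and 158 CPM in the controls and 41.0 to 108 CPM in the ventilated libraries, with a median of 73.5 (log2 fold change -1.29, standard error 0.32). PGK1 was lower with TMM and DESeq2 factors only. The median log2 fold change of the list was -0.14, and it turned to 0.02 with library size alone.

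In the respiratory chain and ATP synthase, 28 of 29 genes had a log2 fold change below 0 (26 of 29 with library size alone) and 2 were below the controls in every ventilated library. COX6A2, the muscle form of a cytochrome c oxidase subunit, had 1972, 1054 and 1389 CPM in the controls and 233 to 931 CPM in the ventilated libraries (log2 fold change -1.58, standard error 0.41). ATP5A1, the alpha subunit of ATP synthase, was one-sided with TMM and DESeq2 factors only, and its log2 fold change of -0.79 became -0.48 without CON replicate 1. The median of the list was -0.46.

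The NRF2 and antioxidant genes gave 5 of 22 on the higher side and 0 on the lower, with a median log2 fold change of 0.54. NQO1, a quinone reductase (chr5:25137496-25149679), had 16.9, 14.7 and 10.6 CPM in the controls and 27.5 to 57.4 CPM in the ventilated libraries (median 47.3, log2 fold change 1.66, standard error 0.30). CAT, catalase, had 79.3, 94.6 and 93.0 CPM against a range of 202 to 550 CPM. HMOX1, haem oxygenase 1, ranged from 12.5 to 95.2 CPM against 3.81, 9.66 and 5.58 CPM. By the rule, all of these ventilated ranges began above the highest control. NFE2L2, which encodes the NRF2 factor itself, differed less, with 96.1 CPM in its lowest ventilated library against 84.5 CPM in its highest control.

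Among 17 ubiquitin ligase and FOXO genes of muscle, 2 were higher and 2 lower. FBXO32 (MAFbx), which marks muscle proteins for breakdown, had 163, 145 and 23.0 CPM in the controls and between 266 and 753 CPM with a median of 415 in the ventilated libraries (log2 fold change 2.08, standard error 0.62). TRIM63 (MuRF1), which acts on thick filament proteins, had 62.0, 67.7 and 38.3 CPM against a range of 87.0 to 357 CPM (1.77, standard error 0.47), and was one-sided with TMM and DESeq2 factors only. By the rule, both ligases were above the controls in every ventilated library on the TMM scale. In the opposite direction, FBXO40, a muscle ligase of the insulin pathway, had 496, 316 and 359 CPM against 89.6 to 232 CPM, and FOXO6 7.97, 13.1 and 6.38 CPM against 1.09 to 4.80 CPM. Of 30 proteasome subunits 0 were one-sided, although all 30 had log2 fold changes above 0, with a median of 0.50. In FPKM 17 of 30 were above the controls, beside 777 of all 12981 genes tested. Of 20 autophagy and lysosome genes 0 were one-sided in either direction on the TMM scale. In FPKM 2 were above the controls and with library size alone 3, beside 777 and 802 of all 12981 genes.

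The study's question concerned cell senescence. Of 22 checkpoint and DNA damage genes, 2 were higher, CHEK2 and NBN, and 0 lower, beside 2.53% and 2.63% of all genes. CHEK2, a checkpoint kinase, had 1.28, 0.735 and 0.425 CPM in the controls and 3.91 to 7.67 CPM in the ventilated libraries (median 5.87, log2 fold change 2.80, standard error 0.50). NBN, of the complex that senses DNA breaks, had 20.6, 25.5 and 21.2 CPM against 29.0 to 55.5 CPM. CDKN1A, an inhibitor of cell cycle kinases, had 1.52, 3.97 and 6.32 CPM in the controls. Its lowest ventilated library (MV replicate 3, 3.71 CPM) fell within them, while the other ventilated libraries ran up to 51.2 CPM. Without MV replicate 3, CDKN1A was above the controls in every remaining ventilated library, as were 479 of 13105 genes in that setting. At an unadjusted p under 0.05 in edgeR, 3 of the 22 genes were higher (CHEK2, CDKN1A and NBN) and 0 lower. Of 15 senescence-associated secreted and related genes 0 were one-sided, and MMP9 fell below the filter. Of the 15, 13 had a log2 fold change above 0, with a median of 0.77 beside 0.06 over all genes tested. At an unadjusted p under 0.05 in edgeR, 5 of 15 were higher and 1 lower, beside 4.01% and 3.71% of all genes. PARP3, an ADP-ribosyltransferase that acts at DNA breaks, was among the 15 higher genes with the smallest p, with 11.8, 15.5 and 8.66 CPM against 31.1 to 109 CPM. PARP3 and its neighbour RRP9 on chromosome 9 were both one-sided, as were many other pairs of neighbours. Whether such pairs exceed chance was not tested.

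Among the lists examined, on the TMM scale, fast fibre genes held the largest share of lower members, 5 of 11 (MYLPF, TPM1, ACTN3, PVALB and CASQ1) with 0 higher. PVALB, the calcium buffer of fast fibres, had 475, 476 and 753 CPM in the controls and 15.2 to 220 CPM in the ventilated libraries, with a median of 73.9 (log2 fold change -2.47, standard error 0.64). CASQ1, the calcium store protein of the fast sarcoplasmic reticulum, had 2654, 2636 and 2463 CPM against 390 to 1420 CPM (-1.57, standard error 0.41). The 3 controls of CASQ1 lay close together and, by the rule, above every ventilated library. ACTN3 and TPM1 were lower with TMM and DESeq2 factors only, and MYLPF with all but library size. Of 11 slow fibre genes 1 was lower, MYL3, a myosin light chain, with 11456, 4108 and 4790 CPM against 1068 to 3047 CPM, and its log2 fold change of -1.70 became -1.10 without CON replicate 1. All 11 genes of each fibre list had a log2 fold change below 0, and with library size alone 1 fast and 2 slow genes turned above 0. The list medians were close, -0.76 for fast and -0.79 for slow genes. The difference in one-sided members depended on the scaling. In FPKM 3 fast and 2 slow genes were lower, and with library size alone 2 of 11 in each list. Over all 12981 genes, 162 and 154 were lower under these scalings.

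The lower values of fibre genes went with a lower total of muscle fibre markers. The summed level of the 6 tested markers was 58406 to 77741 FPKM in the controls and 23496 to 50452 FPKM in the ventilated libraries, without overlap. This sum is carried by the most abundant of them, such as ACTA1, the only one of the 6 that was one-sided. With each marker given the same weight, as a median of centred log2 values, the groups overlapped, since MV replicate 3 at 0.60 lay above CON replicates 2 and 3 at 0.28 and 0.57. In bulk tissue, fewer cells of a type and less RNA per cell cannot be told apart.

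Genes that tie the sarcomere to stretch went both ways. ANKRD23, an ankyrin repeat protein that binds titin, had 4420, 2067 and 3189 CPM in the controls and 264 to 1430 CPM in the ventilated libraries (median 662, log2 fold change -2.17, standard error 0.48). CSRP3, the muscle LIM protein of the Z-disc, had 337, 123 and 155 CPM against 561 to 5702 CPM (log2 fold change 3.25, standard error 0.84). MYBPH, of the thick filament, had 1.76, 2.39 and 6.86 CPM against 10.1 to 78.5 CPM. In all, 2 of 24 stretch-responsive genes were higher and 3 lower, ANKRD23, LDB3 and ACTN3, the last pair with TMM and DESeq2 factors only. ANKRD1, which belongs to the family of ANKRD23, overlapped the controls, with 43.1 to 1441 CPM against 31.1 to 144 CPM.

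At the neuromuscular junction, MUSK, the receptor kinase that clusters acetylcholine receptors, had 1.80, 2.39 and 5.00 CPM in the controls and 9.36 to 72.4 CPM in the ventilated libraries (log2 fold change 3.20, standard error 0.69). CHRNA1, the alpha subunit of that receptor, had 13.3, 8.86 and 6.27 CPM against 15.1 to 56.1 CPM. These 2 of 18 genes were higher and 1, UTRN (utrophin), was lower by a narrow margin and with TMM and DESeq2 factors only. JPH2 (junctophilin 2), a protein of the contact between T-tubule and calcium store, was the only one-sided gene of 22 in excitation-contraction coupling, with 25.2, 37.7 and 10.6 CPM against 2.62 to 7.44 CPM.

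The acute-phase and inflammation list gave 6 of 22 on the higher side (STAT3, SAA3, LCN2, HP, PTX3 and CEBPD) and 0 on the lower. LCN2 had 0 counts in the controls and passed the filter on FPKM only through the ventilated libraries, so its place among the 6 is no independent result. IL1B, TNF, CXCL8, CRP and ORM1 fell below the filter. SAA3, serum amyloid A3, had 0.401, 1.43 and 0.957 CPM in the controls and 13.9 to 701 CPM in the ventilated libraries, with a median of 321 (log2 fold change 8.50, standard error 1.47). CEBPD, a transcription factor of the acute phase, had 18.8, 14.0 and 17.7 CPM against 45.7 to 410 CPM. STAT3, which carries the signal of IL6, had 70.2, 91.5 and 94.9 CPM against 129 to 367 CPM. The ventilated values differed many times among themselves. HP, haptoglobin, reached 14569 CPM in MV_PEEP replicate 3 and had 73.5 to 557 CPM in the other ventilated libraries, against 4.33, 33.8 and 31.3 CPM, and its log2 fold change of 6.82 became 3.22 without that library. PTX3, with 4.81, became 3.02.

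SAA3 lies on an unplaced scaffold in a run of one-sided genes with LOC100009259 and LOC100009168, the last annotated as serum amyloid A1. Both had 0 counts in all 3 controls and passed the filter on FPKM only through the ventilated libraries. Their place in the run is therefore no independent result. With a floor of 3 counts over the CON group as the bound, the mean ventilated level was 1307-fold higher for LOC100009168 and 296-fold higher for LOC100009259. The first value rests on MV_PEEP replicate 1 at 299 CPM, with 1.36 to 20.4 CPM in the other ventilated libraries, and without it the bound was 156-fold. The second rests on MV_PEEP replicate 3 at 47.4 CPM, without which the bound was 131-fold. Since 54.3% of counts from 1 to 12 were 4, 8 or 12, a floor of 3 may be too low and these bounds too high. They were not recomputed with counts divided by 4. Related copies can share reads, so the split between these genes is uncertain. A second run on chromosome 13 (chr13:39004025-39034213) held S100A8, S100A12 and S100A9, granulocyte proteins that bind calcium and zinc.

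S100A12 had 0, 0 and 0.372 CPM in the controls and 3.19 to 141 CPM in the ventilated libraries, S100A9 1.92, 0.845 and 5.90 CPM against 8.72 to 155 CPM, and MV replicate 1 was the highest library for each. Of 9 matched neutrophil markers, 5 passed the filter on FPKM and 4 were one-sided, S100A8, S100A9, S100A12 and LCN2. LCN2 and S100A12 passed it only through the ventilated libraries, where they are high, so this count is no independent result. The summed level of the 5 was 2.96 to 19.1 FPKM in the controls and 30.4 to 1066 FPKM in the ventilated libraries. LCN2 had 0 counts in the controls and 0.0576 to 35.3 CPM under ventilation. MMP8 and MPO, enzymes of neutrophil granules, were listed at 0 in every library. Among macrophage markers 1 of 7 was one-sided, CD14, with TMM and DESeq2 factors only, and their sum was 12.5 to 23.9 FPKM in the controls and 17.9 to 178 FPKM in the ventilated libraries. The part of blood cells in the inflammation genes was not tested.

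**Figure D3:**
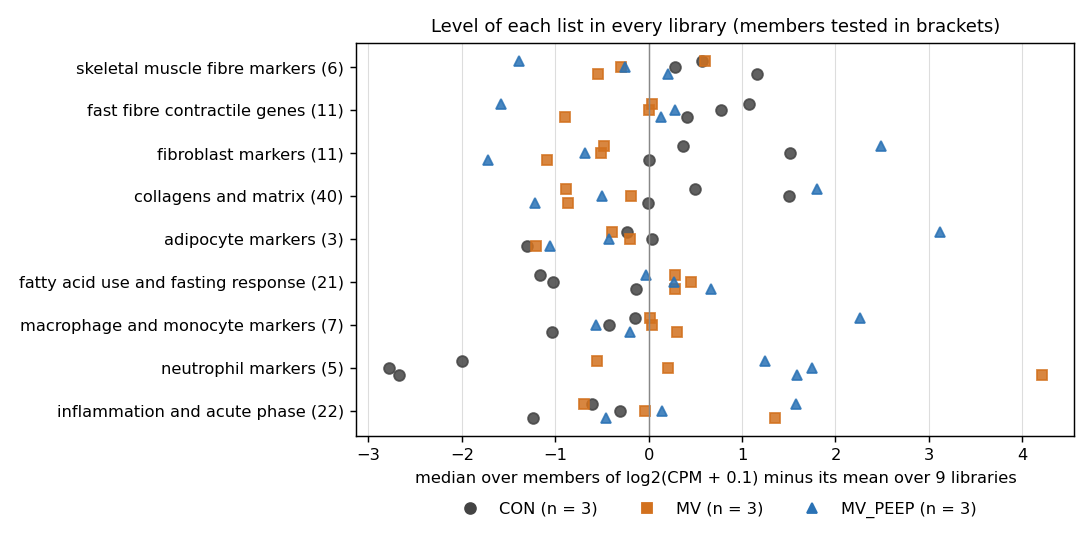
Level of 9 gene lists in each of the 9 libraries, as the median over the members of log2(CPM + 0.1) after centring each gene on its mean over the libraries. Grey circles are CON, orange squares MV and blue triangles MV_PEEP libraries. MV replicate 1 is the highest library for neutrophil markers at 4.21, and MV_PEEP replicate 3 for macrophage markers at 2.26, fibroblast markers at 2.49 and adipocyte markers at 3.12.

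Genes of ribosome building and translation factors, listed together, had 25 of 25 log2 fold changes above 0 (median 0.48). On the higher side were 5 of 25 entries, NOP2, RRP9, MYC and 2 copies of NPM1. The reads of these copies may have been split, and 1 of them was higher with TMM and DESeq2 factors only. NOP2, a nucleolar RNA methyltransferase, had 30.0, 21.2 and 33.6 CPM in the controls and 34.5 to 55.4 CPM in the ventilated libraries. RRP9, a protein of the U3 nucleolar particle, had 14.4, 13.1 and 12.9 CPM against 15.6 to 22.8 CPM. These gaps were small. MYC, a factor that drives ribosome production, had 3.37, 8.16 and 11.6 CPM against 12.1 to 83.9 CPM, with TMM and DESeq2 factors only. Of 33 entries for cytosolic ribosomal proteins 0 were one-sided on the TMM scale. In FPKM 4 were above the controls and with library size alone 6, beside 777 and 802 of all 12981 genes. ODC1, the first enzyme of polyamine synthesis, had 34.7, 25.0 and 29.8 CPM against 36.4 to 113 CPM.

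In the clock, ARNTL (BMAL1) had 2.36, 0.992 and 1.54 CPM in the controls and 4.70 to 15.2 CPM in the ventilated libraries (log2 fold change 2.53, standard error 0.50). NFIL3, a repressor of clock output, had 8.85, 5.40 and 9.89 CPM against 23.5 to 140 CPM. HLF, an activator of clock output, had 18.7, 29.0 and 18.9 CPM against 7.24 to 13.8 CPM, with TMM and DESeq2 factors only. Thus 2 of 18 clock genes were higher and 1 lower. The hour at which each tissue was taken is not given in the sources used here, so the time of day cannot be told apart from ventilation. Of 21 genes of ATF4 and the unfolded protein response 2 were higher, ATF6, a sensor of the endoplasmic reticulum, with 13.4 to 29.5 CPM against 11.7, 9.11 and 9.62 CPM, and CHAC1 with TMM and DESeq2 factors only. MSTN, myostatin, the brake on muscle growth, was the only one-sided gene of 19 in insulin, IGF and myostatin signalling, with 6.65, 5.81 and 5.47 CPM in the controls and 0 to 5.07 CPM under ventilation. Its highest ventilated library, MV replicate 3, came near the lowest control. With TMM and DESeq2 factors no member was one-sided among 26 heat shock genes, 13 chaperonin subunits, 17 satellite cell genes and 16 proliferation genes. In FPKM and with library size alone, 7 of 13 chaperonin subunits, 3 of 26 heat shock genes and 1 of 17 satellite cell genes were above the controls. Over all 12981 genes tested, 777 and 802 were above under these scalings. Of the chaperonin subunits 12 of 13 had a log2 fold change above 0, with a median of 0.55.

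**Figure D4:**
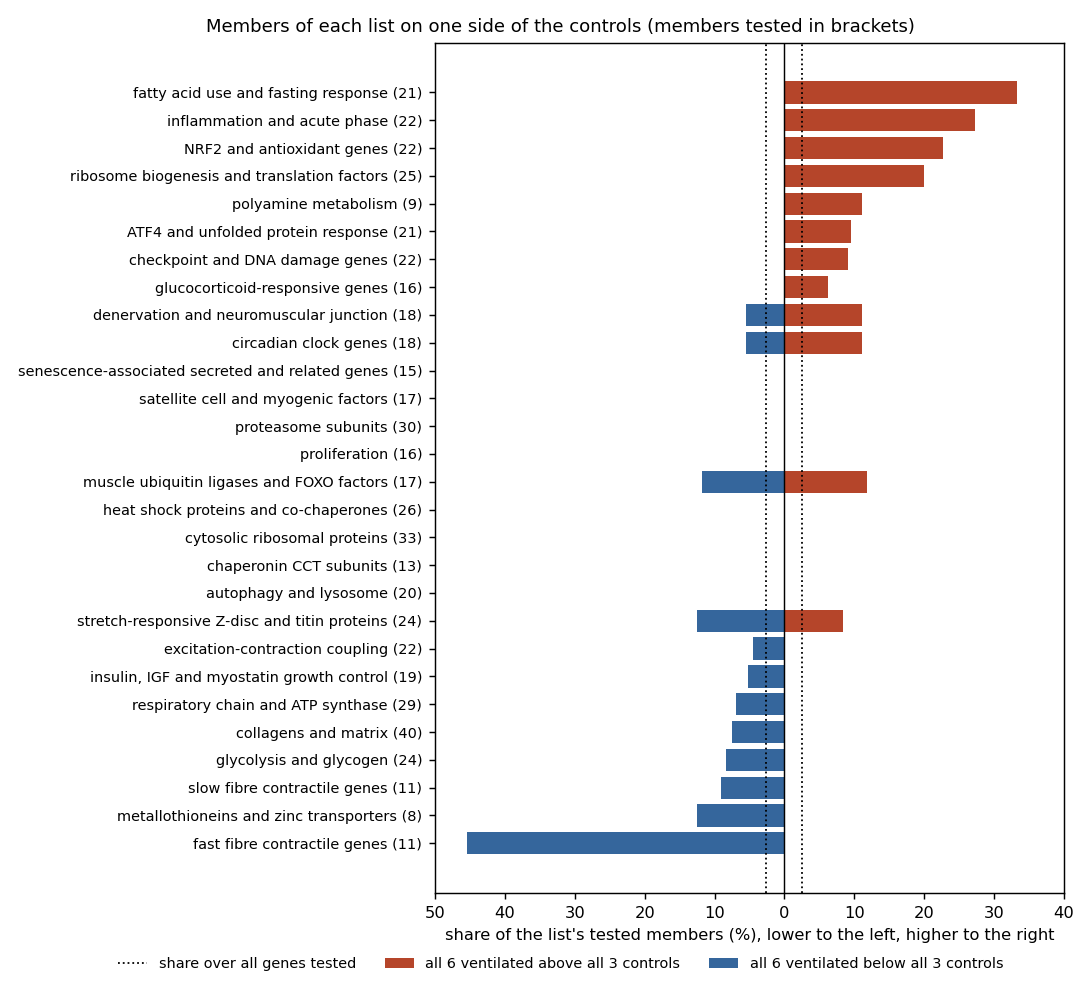
Share of each pathway list's tested members (cell type marker lists are not plotted) with all 6 ventilated libraries above (red, right) or below (blue, left) all 3 controls, with the number tested in brackets. Dotted lines mark the shares over all genes, 2.53% above and 2.63% below. The longest bars among these lists are fatty acid use on the right, 7 of 21, and fast fibre genes on the left, 5 of 11.

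The lower gene with the smallest p was HMCN2, hemicentin 2, a matrix protein on an unplaced scaffold. It had 44.4, 116 and 65.4 CPM in the controls and 5.09 to 16.1 CPM in the ventilated libraries, with a median of 9.85 (log2 fold change -2.91, standard error 0.39). RGMA, a repulsive guidance molecule, had 12.9, 15.7 and 13.9 CPM against at most 4.18 CPM and a median of 3.49 CPM (-2.08, standard error 0.31). The 3 controls of RGMA were close together and, by the rule, above every ventilated library. RASD2, a small GTPase, had 12.1, 17.9 and 8.61 CPM against 0.869 to 2.83 CPM. DYRK1B, a kinase known to hold muscle cells out of the cell cycle, had 159, 180 and 109 CPM against 37.4 to 57.7 CPM (-1.74, standard error 0.26).

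Several lower genes encode secreted or matrix proteins. CILP, a secreted protein of cartilage and connective tissue (chr17:7080560-7095372), had 70.6, 178 and 130 CPM in the controls and 17.9 to 35.9 CPM in the ventilated libraries (log2 fold change -2.16, standard error 0.33). ADAMTSL4, which binds microfibrils, had 198, 154 and 120 CPM against 35.4 to 59.5 CPM. SMOC2, a calcium-binding matrix protein, had 36.1, 76.8 and 29.7 CPM against 8.14 to 16.3 CPM. In all 3 genes, as the rule requires, the groups did not overlap. Of 40 collagen and matrix genes, 3 were lower (POSTN, THBS4 and CILP) and 0 higher, with 31 of 40 log2 fold changes below 0 and a median of -0.44, and with library size alone 22 of 40 were below 0 and the median was -0.09. POSTN and THBS4 were lower with TMM and DESeq2 factors only, and without CON replicate 2, which had 43.0 and 57.2 CPM, their log2 fold changes of -1.81 and -3.91 became -1.04 and -1.70.

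The matrix list moved with the fibroblast markers and with 1 library. Both lists hold COL1A1, COL1A2, COL3A1, DCN and LUM, so they are not independent of each other. MV_PEEP replicate 3 had the highest centred median of both lists, 1.80 and 2.49. Without it 14 of the 40 matrix genes were below the controls in every remaining ventilated library, and the list median was -1.27. Fewer libraries must then be separated, and 586 of all 12636 genes tested in that setting were below. The summed level of the 11 fibroblast markers was 468 to 1701 FPKM in the controls and 150 to 4373 FPKM in the ventilated libraries. The part of fibroblasts in the matrix values was not tested. FAP, a fibroblast protease, and RGS5 and NOTCH3, genes of pericytes, were lower with TMM and DESeq2 factors only, RGS5 with 131, 184 and 140 CPM against 43.8 to 105 CPM.

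CA3, carbonic anhydrase 3, an abundant enzyme of muscle (chr3:100983104-101087638), had 1393, 958 and 606 CPM in the controls and 48.1 to 272 CPM in the ventilated libraries (log2 fold change -2.88, standard error 0.52). CYP4B1, a cytochrome P450, had 19.8, 19.3 and 16.7 CPM against 2.29 to 6.58 CPM. DNASE1 had 65.0, 6.54 and 32.6 CPM against 1.29 to 4.75 CPM. The controls of DNASE1 differed widely, and by the rule its lowest control was above every ventilated library. PLXDC1, PAMR1, KCTD15 and CCDC69 completed the 15 lower genes with the smallest p, with log2 fold changes from -2.49 in PLXDC1 to -1.36 in KCTD15. The largest gap on the lower side was that of LOC103347542, with 467, 424 and 286 CPM against 1.87 to 86.9 CPM. CYTL1 and FZD8, a Wnt receptor, were at 0 CPM in 3 and 1 ventilated libraries and between 2.88 and 7.13 CPM in every control.

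**Figure D5:**
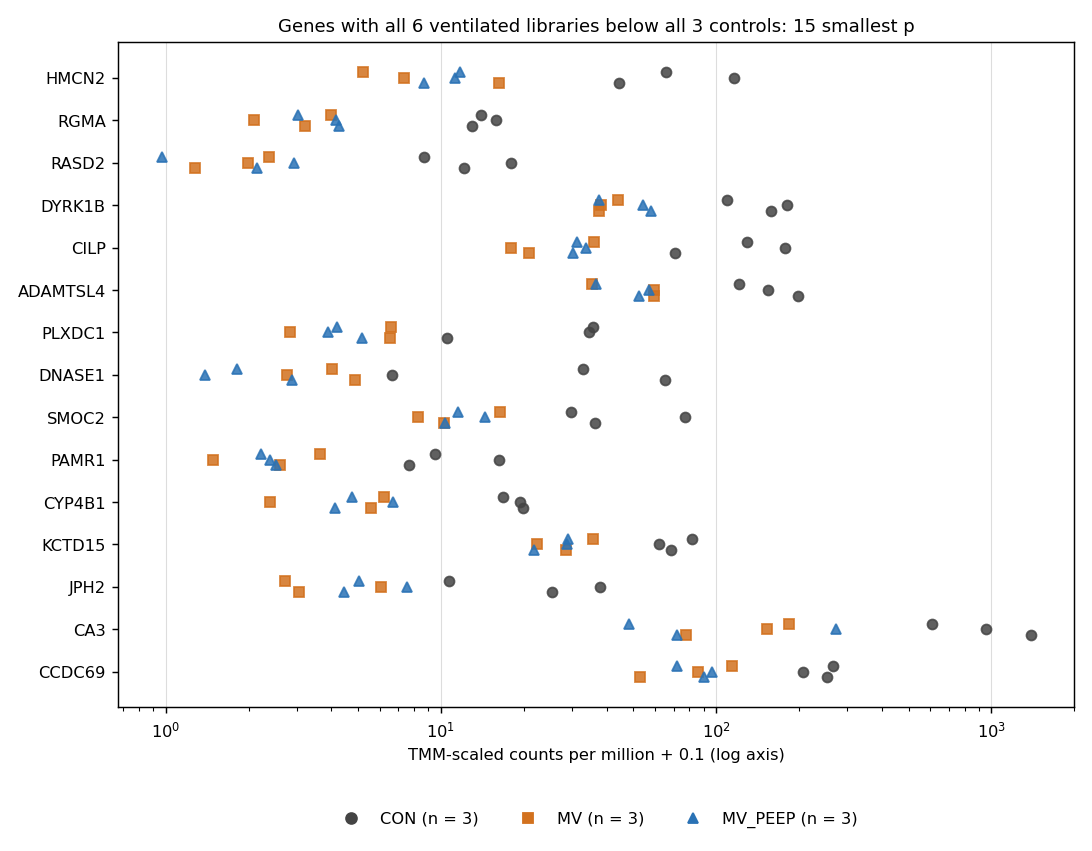
TMM-scaled CPM plus 0.1 (log axis) in each of the 9 libraries for the 15 genes with the smallest p among those with every ventilated library below every control. Grey circles are CON, orange squares MV and blue triangles MV_PEEP libraries. HMCN2 stands at 44.4 to 116 CPM in the controls and at 5.09 to 16.1 CPM in the ventilated libraries.

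The higher gene with the second smallest p has no name in the table. LOC100343557 (chr5:12927577-12929021) is annotated only as a hypothetical protein and lies between MT3, a metallothionein, and NUP93. It had 20.0, 9.11 and 9.14 CPM in the controls and 122 to 934 CPM in the ventilated libraries, with a median of 288 (log2 fold change 4.93, standard error 0.81). Its neighbour LOC100343299, which carries the same annotation, had 0.601 to 2.71 CPM in the controls against 4.47 to 235 CPM and was also one-sided. Reads of such like copies may have been split between them. The next gene, LOC100343802, overlapped, with 1.99 CPM in MV_PEEP replicate 1 and 392 CPM in MV replicate 1 against 4.78 to 11.7 CPM. MT3 overlapped as well, at 19.1 to 396 CPM against 31.6 to 138 CPM.

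Other higher genes among the 15 with the smallest p were KLF11, a transcription factor, with 7.17, 6.17 and 5.74 CPM in the controls against 15.3 to 25.2 CPM, and SIRPA, the receptor for CD47, with 20.7, 41.9 and 49.0 CPM against 102 to 169 CPM. PLBD1, of the phospholipase B family, had a log2 fold change of 2.34 and OSBPL11, of the oxysterol-binding family, of 1.47. LOC103346587, a long noncoding RNA in the reference gene table, had 0 counts in the controls and 0.364 to 4.81 CPM in the ventilated libraries. It passed the filter on FPKM only through the ventilated libraries. Against the floor of 3 counts, with the limit given above, it was 36.8-fold higher, or 21.3-fold without MV_PEEP replicate 1.

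The MV_PEEP and MV groups were also compared with each other. Since the rule used all 6 ventilated values, a gene with 1 ventilated group near the controls could not enter the one-sided genes, and their counts here are a description. At an unadjusted p under 0.05 in edgeR, 457 of all genes differed (3.52%), and of the 670 one-sided genes 15 did (2.24%), 12 of the 329 higher (3.65%) and 3 of the 341 lower (0.880%). At an adjusted p of 0.05 edgeR called 0 genes, the smallest adjusted p being 0.985, and DESeq2 called 15, of which 0 were one-sided.

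Among the one-sided genes with the smallest p between the ventilated groups, ODC1 had 75.5, 76.3 and 113 CPM in the MV group and 41.1, 36.4 and 46.1 CPM in the MV_PEEP group. The MV libraries lay above all MV_PEEP libraries, with a log2 difference of -1.10 (MV_PEEP minus MV, standard error 0.30). LOC100351519, annotated like lactate dehydrogenase A, differed by -1.92 and LOC100354063, like ribosomal protein S20, by -1.14, with RPF1 at -0.67. In the other direction SLC15A2, AZGP1, PHYHD1 and PTX3 were higher in the MV_PEEP group, and in all 4 MV_PEEP replicate 3 was the highest library, with 13.8, 53.1, 124 and 81.8 CPM. Both groups share the controls, and genes such as AQP7 were chosen for their separation in both, which brings their fold changes together. AQP7 had a log2 fold change of 3.08 in the MV and 3.22 in the MV_PEEP group, PLIN2 of 3.80 and 3.37, HMCN2 of -2.98 and -2.85, and CA3 of -2.84 and -2.92.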

How the data were processed

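The submitters' notes name cutadapt 1.9, HISAT2 2.0.4, StringTie 1.3.4d and the assembly OryCun2.0, and libraries were made from poly(A) RNA with dUTP strand marking. The deposited table holds a whole-number count and an FPKM per gene and library, and the program that made the deposited counts is not given in the sources used here. The FPKM values were made by the authors and scale each count to gene length and library size. Of 16302 counts from 1 to 12, 54.3% were 4, 8 or 12, so counts divided by 4 were tried as an alternative. Names came from the table, with 774 LOC names replaced through a reference gene table of another assembly (mOryCun1.1), in which 23368 IDs matched.

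Counts of the 12981 genes with a mean of at least 0.5 FPKM were analysed with edgeR 4.0.16 under R 4.3.3 (TMM factors, estimateDisp, legacy glmQLFit, 1 mean for the ventilated and 1 for the CON libraries, 7 residual degrees of freedom), with Benjamini-Hochberg adjustment over all of them. MV_PEEP against MV used 1 mean per group. Alternatives with DESeq2 1.42.0, limma 3.58.1 and other scalings are in the closing section, and the fit was tested on simulated data. The genes named were the 15 per direction with the smallest p and the 8 with the largest gap (mean of at least 1 FPKM), up to 6 members per list with the smallest p, the genes the study measured by qPCR (some named genes are not reported here), those beside the threshold and those differing most between MV_PEEP and MV. Further list members that were one-sided, and the neighbours of LOC100343557, were named after their values were seen. The genes and lists were chosen with earlier results of these data known. The 21646702 or more counts per library limit the precision of genes with few counts.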

Additional observations from a re-analysis of the deposited data

Results flagged for a closer look

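In 107 named genes, the 6 ventilated libraries were searched for 1 library far from the other 5, by Dixon's ratio on log2(CPM + 0.1) at the 95% critical value. Chance alone gives about 1 such library in 20 groups. A library stood apart in 8 genes, which share the same libraries. In 6 of them it was MV_PEEP replicate 3, which was high for CD36 at 1312 CPM, PTX3 at 81.8 CPM, PHYHD1 at 124 CPM, FABP4 at 3378 CPM and CD14 at 28.1 CPM, and low for MLYCD at 44.4 CPM. In the remaining 2 it was MV replicate 1, high for NFIL3 at 140 CPM and for NFE2L2 at 280 CPM.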

How the results depend on the processing

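The 107 named genes kept the sign of their log2 fold changes under every alternative that gave a value. At an adjusted p of 0.05, against 0 and 0 in edgeR, DESeq2 called 115 genes higher and 91 lower, limma voom 2 and 1, limma on log2(FPKM + 1) 11 and 0, limma on log2(FPKM + 0.1) 16 and 0, edgeR with no filter 1 and 1, and the newer form of glmQLFit and counts divided by 4 both 1 and 0. Leaving out 1 library gave 0 to 2 higher and 0 to 3 lower. Among these were AQP7 higher and LOC103345889, ADAMTS8 and HMCN2 lower without MV replicate 3, ADAMTS20 and AQP7 higher without MV_PEEP replicate 3, and AQP7 higher without CON replicate 3. A fit with the replicate block gave 0 and 0. Replicate numbers were not read as pairs, since same-numbered libraries correlated from -0.297 to 0.384 and 2 of 9 were closest to their own number. By unadjusted p (under 0.05), library size only gave 1101 higher and 251 lower, limma on log2(FPKM + 1) 969 higher, and limma on log2(FPKM + 0.1) 1045 and 295. With 1 library left out these ran from 340 (without CON replicate 2) to 683 higher and from 340 to 727 (without MV_PEEP replicate 3) lower, and 344 were higher without CON replicate 3. The one-sided genes numbered 777 above and 162 below in FPKM, 802 and 154 with library size only, and 385 to 646 above and 386 to 720 below with 1 library left out, where fewer libraries must be separated. Without MV replicate 1 and MV_PEEP replicate 3 together, an alternative added after seeing the data, there were 854 above and 854 below, which held 312 and 330 of the genes described here, and edgeR called LTBP4 alone, lower (1 gene), with 804 lower by unadjusted p. Between MV_PEEP and MV, DESeq2 called 15 genes, and leaving out 1 library gave 0 to 1 (without MV replicate 1). The causes of these differences were not tested.

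Genes with few reads, such as LCN2, CHAC1, AZGP1 and those with 0 counts in the controls, are limited by depth, and the bounds without 1 library in the report were also added after seeing the data.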
